A study of Mus musculus with 59 samples.

Results

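The recovery of mouse gastrocnemius, a calf muscle made mostly of fast fibers, was followed by comparing 3 libraries taken 30 days after cardiotoxin injury (CTX 30 d) with 3 libraries taken 2 days after it (CTX 2 d), across all genes of the table. These are 6 of the 15 gastrocnemius libraries and of the 59 libraries of the series, and the libraries were chosen by their labels. All mice were wild-type C57BL/6 males of 6 ± 1 months. CTX mice received 10 µM cardiotoxin, a snake venom toxin that lyses muscle fibers, into the left hind limb to reach gastrocnemius and soleus, and no hydroxycitrate. The CTX-HC groups had the same injury and the ACLY inhibitor hydroxycitrate (HC) in the diet, with 3 libraries at day 2 and 3 at day 30. The 3 uninjured libraries came from mice that were not injected. The day 2 mice were taken from the uninjured control group and injected on day 28 of the trial, so that both groups were collected at about the same time of the trial. The whole muscle was read in bulk, so fewer cells of a type and less RNA per cell cannot be told apart, and the injected area of a muscle was not separated from the rest. Per the study each gastrocnemius library came from 1 mouse, with 3 mice a group. The p-values rest on the spread between mice within groups, estimated together over all 15 libraries and not from the 6 compared alone.

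Muscle repair after a toxin follows a known order. Fibers die within hours, neutrophils and then monocytes enter and clear the debris, satellite cells leave quiescence under Myod1 and Myog and fuse into new fibers that carry embryonic myosins, and these fibers then take on adult contractile proteins, innervation and mitochondria. Metallothioneins are small proteins that bind zinc and copper through their cysteines. Mt1 and Mt2 are induced by metals, glucocorticoids and cytokines through metal response elements and other sites before the start of the gene. Because 3 metallothionein genes were among those called below, the 250 bases before their RefSeq starts (build GRCm38.p6) are shown here 5′ to 3′. Capitals mark the core of the metal response element, searched as TGCGCNC or TGCACNC on both strands.
Mt3, chr8:94152357-94152606, plus strand: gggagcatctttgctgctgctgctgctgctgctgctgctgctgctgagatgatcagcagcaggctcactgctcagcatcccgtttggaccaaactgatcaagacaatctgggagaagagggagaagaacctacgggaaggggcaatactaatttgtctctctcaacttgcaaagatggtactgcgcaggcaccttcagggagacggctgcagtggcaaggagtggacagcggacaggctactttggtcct
Mt2, chr8:94172368-94172617, plus strand: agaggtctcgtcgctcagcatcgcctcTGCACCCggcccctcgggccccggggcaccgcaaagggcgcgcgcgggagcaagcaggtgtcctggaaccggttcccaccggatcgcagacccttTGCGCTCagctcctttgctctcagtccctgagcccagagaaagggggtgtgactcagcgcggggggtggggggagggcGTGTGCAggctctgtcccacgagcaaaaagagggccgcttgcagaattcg
Mt1, chr8:94178839-94179088, plus strand: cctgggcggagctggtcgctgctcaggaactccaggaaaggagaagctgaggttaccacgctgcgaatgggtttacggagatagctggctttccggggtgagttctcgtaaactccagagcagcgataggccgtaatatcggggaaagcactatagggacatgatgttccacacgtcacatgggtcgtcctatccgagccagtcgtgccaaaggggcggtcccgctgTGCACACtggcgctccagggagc
In these windows the core was found 3 times for Mt2, 1 time for Mt1 and 0 times for Mt3. The Mt1 window ends at 94179088, past the GENCODE start of 94179082, and the Mt2 window ends at 94172617, short of 94172664. The counts depend on the start used, and bases after the windows were not searched. They are not the full number of elements of a gene and do not rank the genes. The core was present in 21.4% of the 32851 mouse promoters of the same length, so that a match is common and is only a description, and 6 of the 26 called genes with a promoter in the RefSeq table held it (Esd, Ier3, Igf2bp2, Mt1, Mt2 and Uck2).

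The libraries of a group were not alike, and this touches every count below. They are named by the last number of their label, or by the label itself for GEN202_23_104. Their values summed to between 16.6 and 30.2 in units of 1e6. Myh4, Acta1 and Ckm, which encode the fast myosin, the actin and the creatine kinase of the fiber, were high in all 15 libraries, which are labelled gastrocnemius. The main axis of variation held 51.7% of the variance. On it CTX 2 d library 57 lay at -16.3, near most uninjured libraries. The uninjured library lowest for Mt1 lay at -71.4, apart from the other uninjured libraries. CTX 2 d libraries 55 and 56 lay at 33.6 and 73.4. CTX 30 d library 51 lay at 1.5, while CTX 30 d libraries 50 and GEN202_23_104 lay at -68.0 and -76.7. CTX-HC 30 d library 62, which enters only the estimate of the spread, lay at 71.5 among the day 2 libraries and held 994.3 of the B cell gene Cd79a, against at most 12.9 in the other 14 libraries. What set these libraries apart was not tested.

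Of 14033 genes tested, 36 differed between day 30 and day 2 at an adjusted p under 0.05 in limma on log2(value + 1), with Benjamini-Hochberg adjustment. The 6 that rose are 0.0428% of the genes tested, and the 30 that fell are 0.214%. Without adjustment, 2957 genes had a p under 0.05, of which 1437 were higher and 1520 lower on day 30. Counts of list members at an unadjusted p below are to be read beside these counts out of 14033. Genes called beyond the 10 largest falls, and Csf3r, Mylpf, Myl2, Myl3 and others so marked below, were named after their values were seen. All 36 genes code for proteins, and in all 36 the 3 day 30 libraries did not overlap the 3 day 2 libraries. Over all genes tested, groups did not overlap with day 30 higher in 14.5% and with day 30 lower in 12.2%. Of the 36, 28 changed by 1 or more on the log2 scale. By the rule of the study, which asks for an unadjusted p under 0.05 and a log2 change of 1 or more in either direction, 531 genes were higher and 715 lower at day 30. With all libraries scaled to equal totals, which moved the median of all genes from -0.02 to -0.18 on the log2 scale, these were 315 and 760, and after quantile normalization 715 and 670.

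The number called rested on single libraries and on the shared estimate of the spread. It was 2 when only the 6 libraries were fitted. It was 1 without CTX 2 d library 55, 0 without CTX 2 d library 56 (1968 genes at an unadjusted p under 0.05), 31 without CTX 2 d library 57 (14 of the 36 among them), 0 without CTX 30 d library 50 (1601 genes), 5 without CTX 30 d library 51 and 330 without CTX 30 d library GEN202_23_104. Without CTX-HC 30 d library 62, which adds nothing to either mean, 644 genes rose (4.63%) and 586 fell (4.21%). That alternative was chosen after seeing the data. Library 62 lay apart from the other CTX-HC 30 d libraries on the main axis. Leaving it out therefore narrows the estimated spread of genes that follow this axis. Calls made without library 62, here and below, are not separate support. All 36 genes were called without library 62 too, and all 36 kept their direction with each of the 6 libraries left out.

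**Figure D1:**
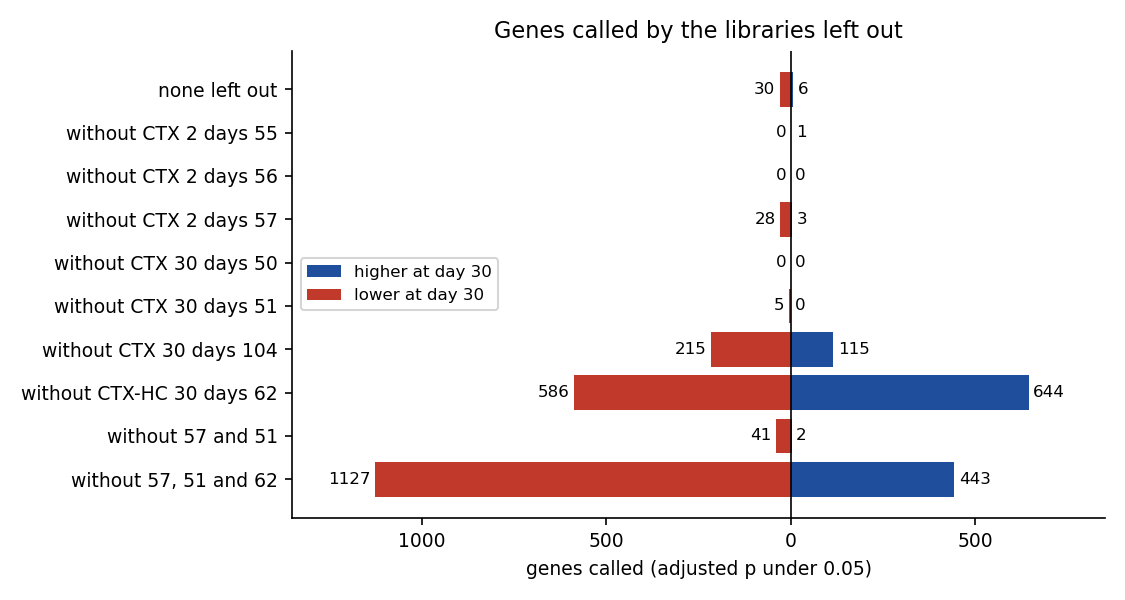
Genes called in CTX 30 d against CTX 2 d (horizontal axis, number of genes at an adjusted p under 0.05) by the libraries left out of the fit (rows), to the right when higher at day 30 and to the left when lower. The bars go from 0 genes without CTX 2 d library 56 to 443 rises and 1127 falls without libraries 57, 51 and 62.

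The metallothioneins held 3 of the 6 largest falls. They lie side by side on chromosome 8, Mt3 at 94152607 to 94154146, Mt2 at 94172664 to 94173568 and Mt1 at 94179082 to 94180327 (mm10, GENCODE vM21). The normalised value of Mt1 was 3558, 2016 and 3206 in the day 2 libraries and 128.5, 239.2 and 143.6 in the day 30 libraries. Mt2 was at 2684, 1843 and 1291 on day 2 and at 55.1, 149.9 and 106.6 on day 30. Mt3, best known from brain, was at 458.9, 855.8 and 871.0 on day 2 and at 23.3, 19.9 and 43.8 on day 30. The groups did not overlap for any of them, and library 57, which resembled uninjured muscle in its overall profile, was not the lowest day 2 library for Mt1 or Mt3. Mt1 fell by 4.11 ± 0.57 (SE) on the log2 scale (adjusted p = 0.0166). Mt2 fell by 4.26 ± 0.57 (adjusted p = 0.0166) and Mt3 fell by 4.63 ± 0.84 (adjusted p = 0.0422). Mt1 and Mt2 are close copies whose reads may be shared between them. In uninjured muscle Mt1 was at 847.6, 576.5 and 113.1. The 3 day 30 values lay within this range only because of its lowest library. They lay below the other uninjured values. For Mt3 the 3 day 30 values all lay below the uninjured values of 550.1, 384.2 and 140.5.

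Lcn2, which encodes lipocalin 2, a protein that withholds iron from bacteria and is made by neutrophils and by stressed tissue, lies on chromosome 2 from 32384633 to 32388252. It was at 178.6, 84.1 and 169.4 on day 2 and at 1.73, 3.18 and 9.26 on day 30. It fell by 4.81 ± 0.60 (adjusted p = 0.0166), and library 57 was again among the high ones. Of the 5 neutrophil markers, Csf3r was at 157.4, 348.8 and 24.2 on day 2, Cxcr2 at 24.6, 28.8 and 1.1, S100a8 at 17.4, 7.42 and 0 and S100a9 at 3.61, 8.14 and 1.08, and Ly6g was at 0 in all 6 libraries. Library 57 was the lowest day 2 library for the first 4 of these and not for Lcn2, and the part of neutrophils in the level of Lcn2 was not tested. Card14, which encodes a scaffold that activates NF-kappaB in epithelial cells (chromosome 11, 119307768 to 119345375), was at 960.2, 662.1 and 336.0 on day 2 and at 14.9, 41.7 and 41.0 on day 30, and fell by 4.29 ± 0.55 (adjusted p = 0.0166). Krt80, an epithelial keratin, was at 660.5, 501.5 and 202.3 on day 2 and at 25.4, 71.9 and 52.9 on day 30, a fall of 3.11 ± 0.51 (adjusted p = 0.0342). The basal skin keratins Krt5 and Krt14 were at 0 in all 6 libraries. Krt10, another skin keratin, was above 0 in all 6. It lay between 5.64 and 14.6 on day 2 and between 11.8 and 26.8 on day 30, and these ranges overlapped. The part of skin in the level of Krt80 was not tested. Plet1, a membrane protein of epithelial and progenitor cells, had the largest standard error of the 36, with 233.3, 92.6 and 12.3 on day 2 and 0, 0 and 1.08 on day 30, values too low for a fold change to be given (adjusted p = 0.0342).

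**Figure D2:**
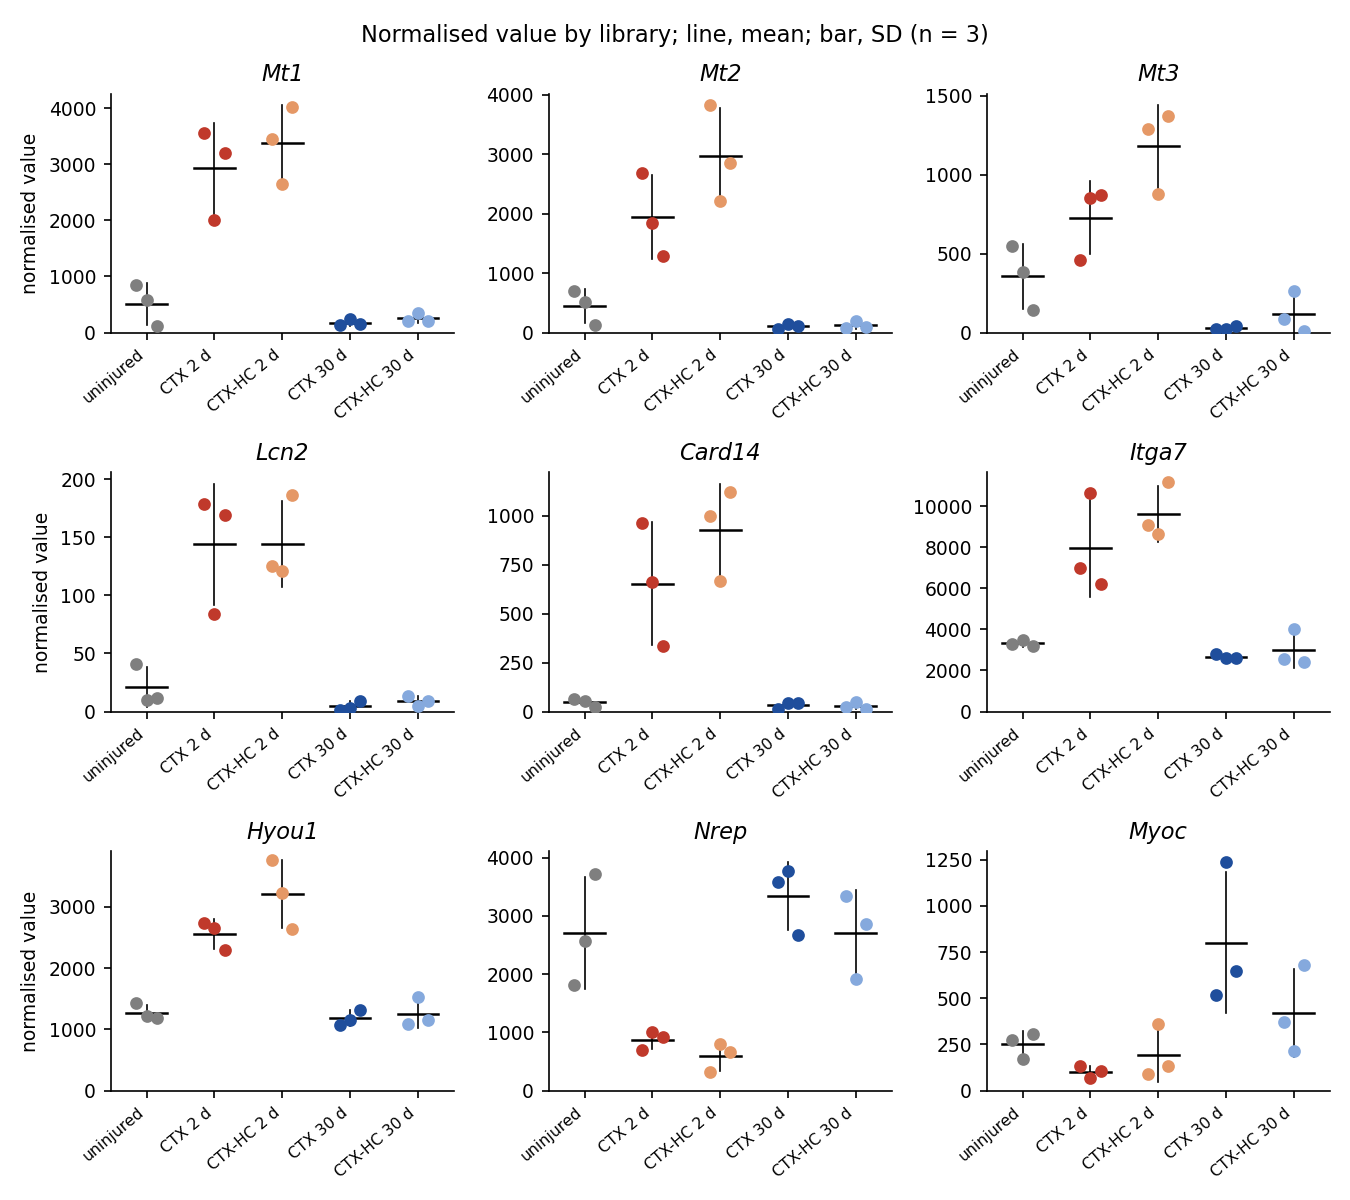
Normalised value (vertical axis, linear from 0) of 9 called genes in each of the 15 libraries by group, with the mean as a line and the SD as a bar (n = 3). In all 9 panels the CTX 30 d points lie apart from the CTX 2 d points, and CTX-HC mice had a like order for Mt1, Mt2 and Card14.

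Among the genes that fell, some are known from muscle precursor cells and new fibers. Itga7 encodes the alpha 7 integrin that ties the fiber to laminin and marks myoblasts. It was at 7001, 10619 and 6215 on day 2 and at 2800, 2583 and 2587 on day 30, a fall of 1.54 ± 0.22 (adjusted p = 0.0187). Igf2bp2, an RNA-binding protein active in myoblast growth, went from 376.1, 306.5 and 246.3 to 24.9, 38.6 and 56.2 (a fall of 2.98 ± 0.43, adjusted p = 0.0187). Tead4, a transcription factor of the Hippo pathway that acts in muscle differentiation, had values of 1013, 986.3 and 956.8 on day 2, all above the day 30 values of 313.8, 356.3 and 559.0 (adjusted p = 0.0441). Nras, a small GTPase of growth signaling, fell by 0.90 ± 0.15 (adjusted p = 0.0363). Nrcam, a neural cell adhesion molecule, was at 79.5, 107.6 and 59.9 on day 2 and at 18.3, 15 and 11.1 on day 30. Scn3b, a beta subunit of voltage-gated sodium channels, was at 161.1, 144.7 and 134.0 and then at 42.1, 42.6 and 28.1. In uninjured muscle Nrcam and Scn3b lay between the groups.

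Some of the called genes encode enzymes of biosynthesis. Mthfd2, the mitochondrial folate enzyme of dividing cells, was at 524.9, 325.1 and 697.4 on day 2 and at 75.5, 96.4 and 130.3 on day 30, and fell by 2.31 ± 0.40 (adjusted p = 0.0375). Uck2, which phosphorylates uridine and cytidine, went from 922.7, 845.1 and 851.3 to 257.2, 243.8 and 399.4. Srm, spermidine synthase, went from 270.9, 319.4 and 273.2 to 136.1, 130.1 and 135.0. Pprc1, a coactivator of mitochondrial biogenesis, Smyd5, a histone methyltransferase, and Rnh1, the ribonuclease inhibitor, also fell, by 0.93, 0.87 and 1.43 on the log2 scale. Uninjured values of Uck2 (470.8, 395.0 and 280.3) overlapped those of day 30 and lay below all those of day 2.

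Hyou1, a chaperone of the endoplasmic reticulum, was at 2738, 2648 and 2288 on day 2 and at 1071, 1147 and 1323 on day 30, a fall of 1.12 ± 0.17 (adjusted p = 0.0273). Pdia6, a disulfide isomerase of the same compartment, was at 2041, 1757 and 1466 and then at 746.6, 989.8 and 840.9, a fall of 1.03 ± 0.18 (adjusted p = 0.0363). The 250 bases before Pdia6 hold an exact endoplasmic reticulum stress element (CCAAT, 9 bases, then CCACG, both strands searched), shown in capitals because it was the only such match among the 26 called genes with a promoter and occurs in 0.113% of all mouse promoters of that length. Hyou1 was not among these 26 and was not searched. The match was picked because it was found, so it is only a description. Its part in the fall of Pdia6 was not tested.
Pdia6, chr12:17266339-17266588, plus strand: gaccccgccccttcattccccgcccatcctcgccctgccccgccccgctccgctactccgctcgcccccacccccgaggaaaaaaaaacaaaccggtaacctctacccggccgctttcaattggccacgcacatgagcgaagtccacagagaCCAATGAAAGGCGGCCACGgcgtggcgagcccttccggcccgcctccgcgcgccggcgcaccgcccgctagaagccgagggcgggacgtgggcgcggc
Lmna, lamin A and C of the nuclear lamina, was at 6436, 6473 and 5734 on day 2 and at 2281, 3103 and 3578 on day 30. Kpnb1, which carries proteins into the nucleus, was at 4876, 4420 and 5171 and then at 2920, 2716 and 3147 (a fall of 0.72 ± 0.13, adjusted p = 0.0494). Cd63, a membrane protein of lysosomes and late endosomes, and Ehd4, which acts in endosome recycling, fell by 1.30 and 1.17. The other falls were Ier3, an immediate early survival gene, Esd, a serine hydrolase, Fbxl22, an F-box protein of heart and muscle sarcomeres, Gprc5c, an orphan receptor, and Zfp568, a zinc finger repressor.

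The rises were few. Nrep, a small protein made in regenerating neurons and in muscle, was at 695.3, 1003 and 916.1 on day 2 and at 3587, 3764 and 2677 on day 30, a rise of 1.94 ± 0.35 (adjusted p = 0.0419). Myoc, the secreted protein myocilin, was at 131.2, 67.3 and 104.2 and then at 519.1, 1235 and 648.8, a rise of 2.93 ± 0.53 (adjusted p = 0.0422), and its day 30 values lay above all uninjured ones. Zmym2, a zinc finger protein of chromatin, was at 750.4, 699.7 and 794.2 on day 2 and at 1524, 1533 and 1438 on day 30, where the uninjured libraries were at 1385, 1327 and 1811. Ypel3, a growth-inhibiting protein, rose by 0.94 ± 0.16 and Tcp11l2 by 0.75 ± 0.13 (adjusted p = 0.0363 and 0.0375). Amph, a protein of endocytosis in nerve endings, was listed at 0 in the 3 day 2 libraries and at 12.7, 13.2 and 9.70 on day 30. These are low values in a deposit of normalised counts, and uninjured libraries held 5.38, 2.79 and 10.5.

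**Figure D3:**
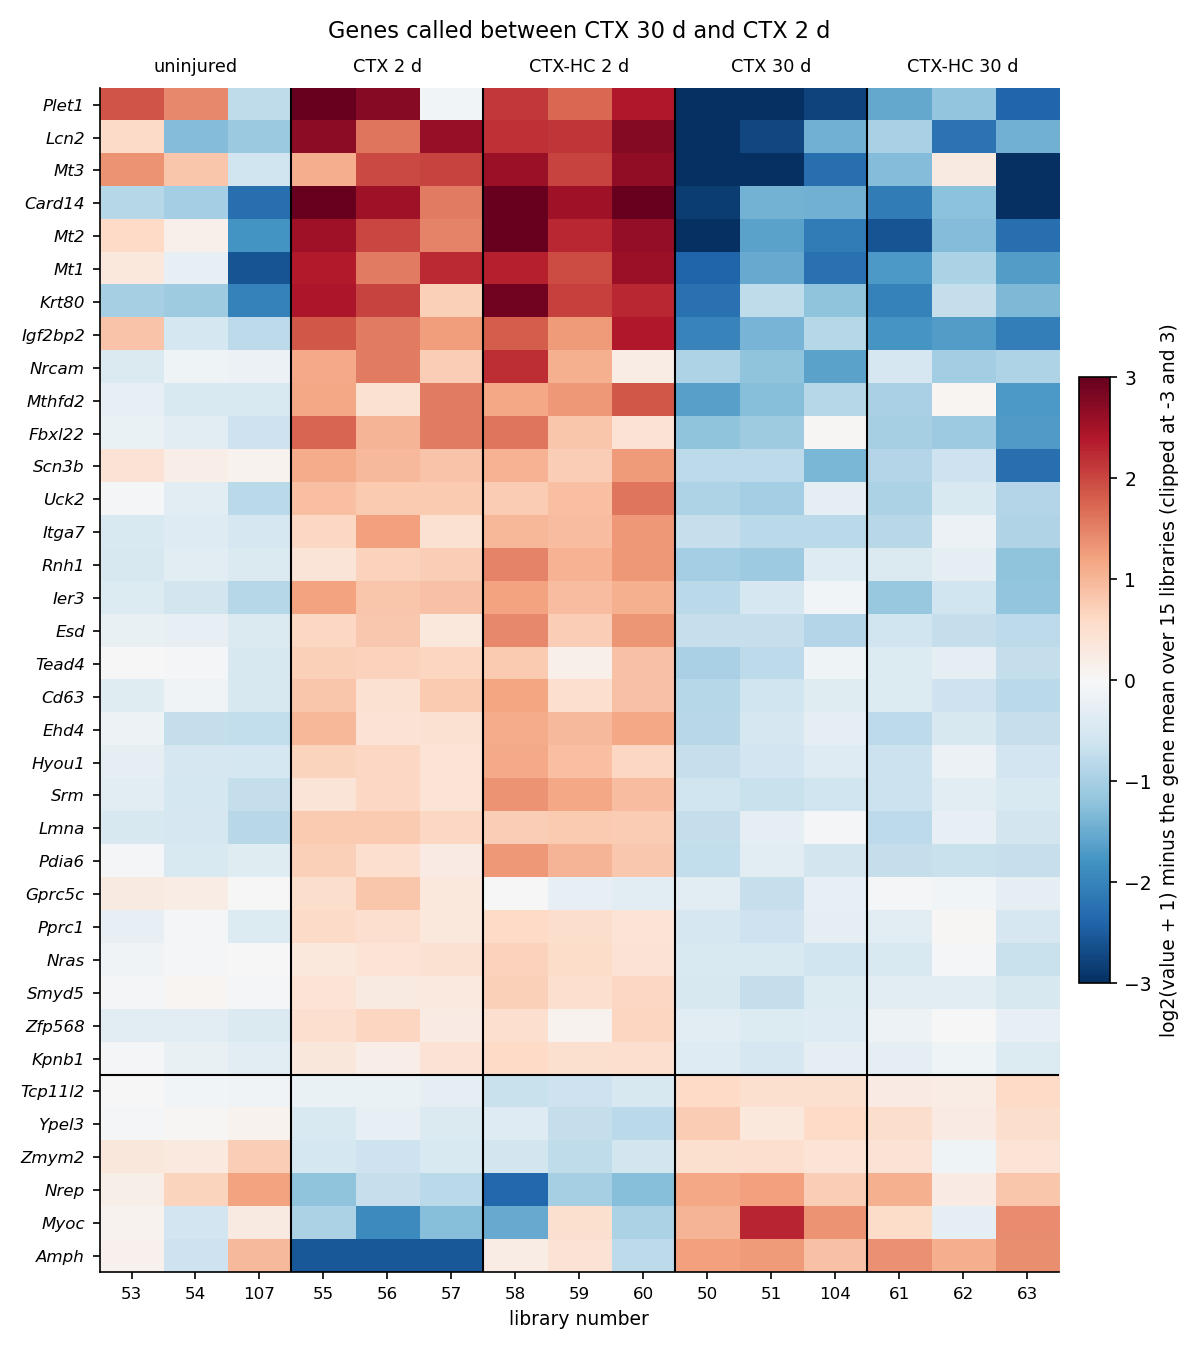
The 36 called genes (rows, by log2 fold change) in 15 libraries (columns, by group), as log2(value + 1) minus the mean of each gene. The 30 genes above the line are higher in all 3 CTX 2 d libraries than in all 3 CTX 30 d libraries, and the 6 below it lower; library 57 has the pattern of its group for most of them.

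The injury side of the contrast can be read against uninjured muscle, which shares the libraries of both comparisons and is given as values. The 36 genes were picked through the same day 2 and day 30 libraries, and like counts over all genes tested were not made. The counts that follow therefore only describe these genes. For 28 of the 30 genes that fell, each day 2 library lay above each uninjured library, Plet1 and Mt3 being the exceptions, and for all 6 that rose each day 2 library lay below. For 21 of the 36 the day 30 range overlapped the uninjured range. The other 15 were Esd, Lcn2, Itga7, Igf2bp2, Plet1, Nras, Mthfd2, Gprc5c, Smyd5, Mt3, Nrcam and Scn3b, all lower on day 30 than in uninjured muscle, and Ypel3, Tcp11l2 and Myoc, all higher. In the test of day 30 against uninjured over all genes, 0 were called by limma (0.0%), with 437 at an unadjusted p under 0.05, so that none of these 15 passed it.

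Of the 44 gene lists, 13 had shares of the library that did not overlap between the groups, 8 higher and 5 lower on day 30, and 3 against 3 libraries cannot go below p = 0.1 in an exact permutation test. The 20 fast fiber genes, among them the fast myosins and troponins, were one of the 8. They held 13%, 11.6% and 13.5% of the day 2 libraries and 18.2%, 14.9% and 17.1% of the day 30 libraries, against 15.9% in uninjured muscle on average. Of the 20, 0 were called by limma and 5 had an unadjusted p under 0.05, all higher on day 30. Their median log2 fold change was 0.83 against -0.02 over all genes tested; groups did not overlap with day 30 higher in 45.0% of them. Myh4 was at 872296, 496344 and 1082478 on day 2 and at 1622919, 932439 and 1478186 on day 30, and these ranges overlapped (log2 fold change 0.75 ± 0.81, adjusted p = 0.606). Mylpf, the fast regulatory light chain, was at 72986, 35520 and 36715 and then at 113631 or more in each day 30 library, and its adjusted p was 0.155 with all libraries, 0.0363 without library 62 and 0.0693 without libraries 57, 51 and 62. Acta1 overlapped between the groups, and so did Ckm. The other fast myosins overlapped too. Myh1 was at 110878, 334408 and 89200 on day 2 and at 77523, 86016 and 140431 on day 30, and Myh2 was at 21932, 38482 and 12147 and then at 34989, 71069 and 33262.

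Slow fiber genes were spread widely among the day 30 libraries. Myh7, the slow myosin heavy chain, was at 1414, 1558 and 1015 on day 2 and at 15566, 36997 and 8868 on day 30. The groups did not overlap, and the log2 fold change of 3.72 ± 0.86 missed the threshold (adjusted p = 0.0821) and passed it without library 62 (adjusted p = 0.0312). Without libraries 57, 51 and 62 it was 2.98 and did not pass (adjusted p = 0.0903). The slow light chains Myl2 and Myl3 had the same order, with Myl2 at 227.2, 332.9 and 168.9 and then at 2483, 5422 and 1096. Library 51 was the highest of the 3 for all of these. Uninjured library 54 held 7378 of Myh7 while the other uninjured libraries held 883.4 and 858.8. Over the 14 slow fiber genes 0 were called by limma, 7 had an unadjusted p under 0.05, all higher on day 30, and the median was 1.66. It was 1.12 without library 51 and 0.88 without libraries 57, 51 and 62.

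**Figure D4:**
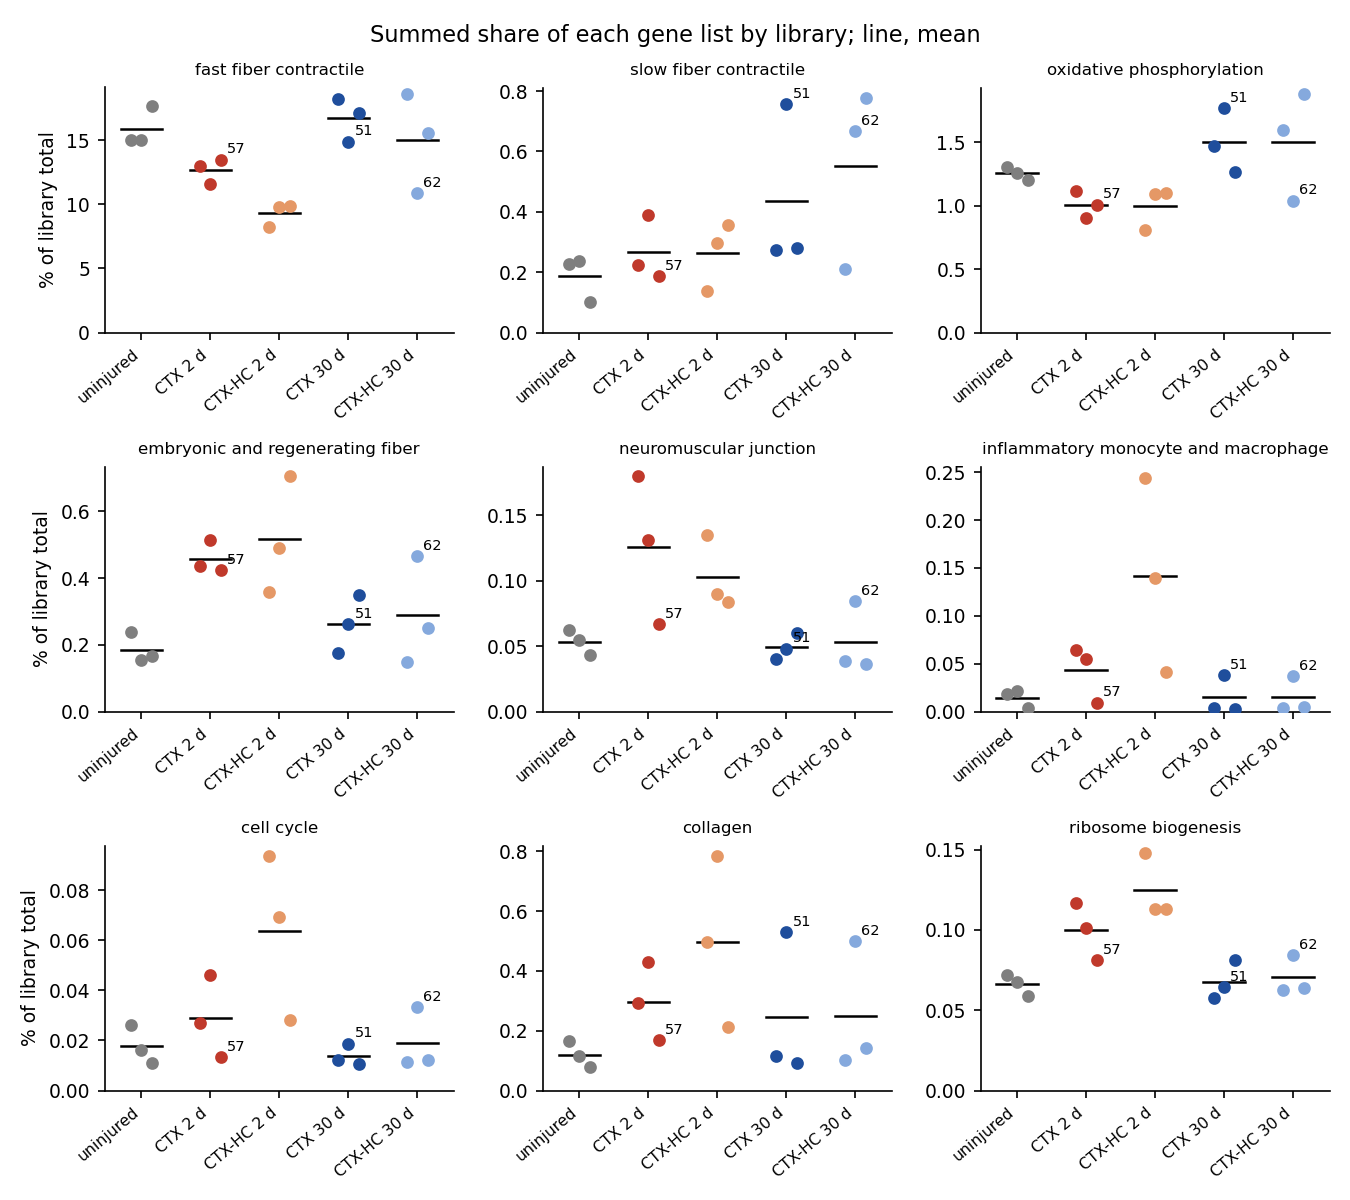
Share of each library taken by 9 gene lists (vertical axis, percent of the sum of all values; panels by list) in the 15 libraries by group, with the mean as a line and libraries 57, 51 and 62 numbered. Fast fiber and oxidative phosphorylation shares are higher in all 3 CTX 30 d libraries than in all 3 CTX 2 d libraries, while monocyte, cell cycle and collagen shares overlap, with library 57 low and library 51 high in their groups.

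Oxidative phosphorylation, the chain of mitochondrial complexes that makes ATP, was higher on day 30 in most of its genes. Its 86 nuclear genes held 1.12%, 0.901% and 1.01% of the day 2 libraries and 1.47%, 1.77% and 1.27% of the day 30 libraries. Of 83 tested, 81 had a positive log2 fold change, 0 were called by limma and 43 had an unadjusted p under 0.05. Groups did not overlap with day 30 higher in 75.9%, against 14.5% of all genes. The median log2 fold change was 0.71, and it was 0.56 with equal library totals and 0.61 after quantile normalization. By complex, the median was 0.66 for the 37 genes of complex I, 0.80 for complex II, 0.72 for complex III, 0.67 for complex IV and 0.78 for ATP synthase. Library 62 held 1.04% for this list, against 1.6% and 1.88% in CTX-HC 30 d libraries 61 and 63. Leaving it out thus narrows the spread of these genes. Without library 62, 37 of the 83 were called as rises (44.6%, against 4.63% of all genes). Cox7b, a complex IV subunit, was the largest of them and was named after its value was seen, with 1037, 446.2 and 484.7 on day 2 and 3666, 3654 and 2278 on day 30. Fatty acid oxidation and citric acid cycle genes had a median of 0.77 over 34 genes, with 0 called by limma and 17 at an unadjusted p under 0.05, and shares of 0.594%, 0.503% and 0.565% on day 2 and of 0.850%, 1.04% and 0.649% on day 30. Uqcr10 of complex III and the dehydrogenase subunits Idh3g and Dld, chosen after their values were seen, did not overlap and were called without library 62 (adjusted p = 0.0166, 0.0164 and 0.0164). Dld, shared by several mitochondrial dehydrogenases, was at 1915, 1086 and 1507 on day 2 and at 3893, 4037 and 3119 on day 30, and the uninjured libraries were at 2746, 2379 and 3042. For muscle isoforms of glycolysis the median was 0.45 over 18 genes, or 0.75 without library 57, with 0 called by limma and 4 higher at an unadjusted p under 0.05, and for the creatine, calcium and oxygen buffers it was 0.52 over 12.

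Among 27 tested genes of inflammatory monocytes and macrophages 24 had a negative log2 fold change, 0 were called by limma, 12 had an unadjusted p under 0.05, and the median was -1.89. It was -3.41 without library 51, -2.92 without library 57 and -4.18 without libraries 57, 51 and 62. Adgre1, which encodes the macrophage marker F4/80, was at 658.0, 502.3 and 125.3 on day 2 and at 47.0, 364.7 and 20.1 on day 30 (-2.27 ± 1.05, adjusted p = 0.237). Ccr2, the receptor that brings monocytes into tissue, was at 454.0, 751.6 and 122.3 and then at 57.3, 347.8 and 44.5. The low day 2 value was that of library 57 and the high day 30 value that of library 51 in each case. Spp1, osteopontin, did not overlap, with 5728, 2199 and 314.0 on day 2 and 25.3, 237.7 and 3.29 on day 30 (-5.72 ± 1.37, adjusted p = 0.0862). Gpnmb, a marker of macrophages that take up debris, was at 4261, 3018 and 585.6 and then at 65.2, 609.3 and 88.5. Without library 62, Spp1, Gpnmb and Trem2 were called (adjusted p = 0.0336, 0.0431 and 0.0488). Arg1, Chil3 and Ccr1 were chosen after their values were seen, and their groups did not overlap. Arg1, arginase 1, was at 138.1, 294.8 and 17.5 on day 2 and at 0, 1.52 and 6.42 on day 30, and Chil3, a chitinase-like protein, was at 219.9, 60.4 and 13.3 and then at 0, 4.46 and 0. Ccr1, a chemokine receptor, was at 124.2, 171.0 and 30.7 and then at 0, 14.4 and 1.09. Their adjusted p was 0.0853, 0.0551 and 0.056, and without library 62 it was 0.0258, 0.0164 and 0.0182. Library 57 was the lowest day 2 library for all 3. Resident macrophage genes had a median of -1.20 over 15, with 0 called by limma. At an unadjusted p under 0.05, 1 was higher and 2 were lower, against 1437 and 1520 of all 14033 genes tested. Mrc1, the mannose receptor, overlapped, with 835.3, 1127 and 266.5 on day 2 and 82.3, 657.1 and 210.5 on day 30, and so did Cd163, the receptor for hemoglobin bound to haptoglobin. Stab1 did not overlap, with 4640, 5382 and 1440 and then 434.6, 1193 and 436.7 (-2.44 ± 0.71, adjusted p = 0.122, and 0.0392 without library 62). Maf had the other order without overlap, with 5747, 5007 and 5846 and then 8302, 5926 and 6280 (0.29 ± 0.25, adjusted p = 0.516). In the CTX-HC 2 d libraries Maf was at 3849, 4527 and 3652, where Stab1 was at 14133, 12169 and 3800. Which cells of the whole muscle held Maf was not tested, so it is not read as a level of macrophages. Over 28 genes of debris clearance 1 was called, Cd63, and the median was -0.71, or -1.07 without library 57.

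For neutrophil genes the median was -2.47 over 16 tested, all 16 negative, with Lcn2 the 1 called, and it was -3.43 without library 51, -3.62 without library 57 and -4.20 without libraries 57, 51 and 62. Csf3r, the receptor for granulocyte colony-stimulating factor, was at 157.4, 348.8 and 24.2 on day 2 and at 7.25, 37.4 and 4.58 on day 30. The cytokine gene Il6, too low to be tested, was at 1.86, 9.54 and 0 on day 2 and at 2.23, 2.73 and 2.21 on day 30. Il1b was at 5.55, 29.7 and 4.34 and then at 0, 13.7 and 0, and both genes overlapped. Ccl2, a chemokine for monocytes, was at 112.6, 126.0 and 6.89 and then at 3.23, 41.8 and 3.11. C3, the central complement protein, was at 529.7, 465.3 and 226.3 on day 2 and at 739.2, 3834 and 774.0 on day 30, and Cd74, the class II invariant chain, overlapped, with 6314 in library 51. For complement the median was 0.83 over 18 genes, with 0 called by limma and, at an unadjusted p under 0.05, 8 higher and 2 lower. It was 0.45 without library 51 and -0.01 without libraries 57, 51 and 62. For MHC class II the median was 0.07 over 15, with 0 called and 0 at an unadjusted p under 0.05, and it was -0.81 without library 51, -0.54 without library 57 and -1.44 without libraries 57, 51 and 62.

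Cell cycle genes were mostly lower on day 30. Of 46 tested, 43 had a negative log2 fold change, 0 were called by limma and 28 had an unadjusted p under 0.05. The median was -2.08, and in 58.7% all day 30 libraries were below all day 2 libraries, against 12.2% of all genes. Mki67, a marker of dividing cells, was at 421.5, 674.2 and 156.3 on day 2 and at 53.2, 171.8 and 21.1 on day 30. Top2a, a topoisomerase of mitosis, was at 289.1, 435.7 and 94.8 and then at 26.3, 114.1 and 7.74. In both the lowest day 2 library, 57, was below the highest day 30 library, 51. Which cells divided cannot be told from these libraries. Library 62 held 0.0332% for the cell cycle list, against 0.0114% and 0.0123% in CTX-HC 30 d libraries 61 and 63. Leaving it out thus narrows the spread of these genes. Without library 62, 11 of 46 were called as falls (23.9%, against 4.21% of all genes), among them Aurkb and Cdc20, chosen after their values were seen.

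Regulators of myogenesis did not all have the same order. Pax7, the marker of satellite cells, was at 59.5, 143.9 and 62.4 on day 2 and at 93.8, 112.2 and 78.8 on day 30, and Myf5 at 29.3, 36.5 and 28.3 and then at 51, 46.1 and 28.7, and both overlapped. Myod1 was at 5593, 1950 and 1388 on day 2 and at 665.6, 409.2 and 828.9 on day 30 (-2.02 ± 0.42, adjusted p = 0.0621). Myog was at 5269, 2162 and 510.0 and then at 179.3, 271.1 and 501.6 (-2.63 ± 0.79, adjusted p = 0.127). For both the groups did not overlap, and without library 62 both were called (adjusted p = 0.0223 and 0.0477). The fusion proteins Mymk and Mymx overlapped, with Mymk at 24.9, 445.6 and 172.0 on day 2 and at 5.16, 85.5 and 27.8 on day 30. Myf6, the factor of mature fibers, overlapped, with 7166, 2277 and 4778 and then 1831, 1310 and 4711. Nes, which encodes the filament nestin of young fibers and junctions and was chosen after its value was seen, was at 3709, 9915 and 3869 and then at 1624, 1623 and 1803 (adjusted p = 0.0852, and 0.0188 without library 62). Mstn, myostatin, a brake on muscle growth, overlapped, with 615.1, 154.0 and 1273 on day 2 and 1285, 459.6 and 1537 on day 30. Over 33 genes of the list of satellite cells and myogenic regulators 1 was called, Itga7.

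Fetal isoforms were not uniformly high on day 2. Myh3, embryonic myosin, was at 96.9, 2482 and 1052 on day 2 and at 140.3, 809.5 and 408.8 on day 30, and the uninjured libraries held 78.9, 563.3 and 1462. Myh8, perinatal myosin, overlapped likewise. H19, an imprinted RNA without a protein, was at 18363, 22349 and 20370 and then at 9730, 12770 and 14873 (-0.73 ± 0.29, adjusted p = 0.186). The 26 genes of embryonic and regenerating fibers held 0.435%, 0.515% and 0.424% of the day 2 libraries and 0.176%, 0.262% and 0.348% of the day 30 libraries, which did not overlap. H19 and Hspb7, a small heat shock protein, are its 2 members of highest mean and weigh far more in this share than Myh3 and Myh8. Hspb7 was at 29664, 20407 and 35364 on day 2 and at 4507, 9923 and 20991 on day 30, and overlapped. The share is thus not a measure of the embryonic myosins. The median over the 25 members tested was -0.82, with 0 called by limma and 9 lower at an unadjusted p under 0.05. For the neuromuscular junction the median was -0.68 over 21, with 0 called and 9 lower at an unadjusted p under 0.05. Chrng, the fetal subunit, was at 317.7, 496.1 and 129.2 and then at 6.16, 28.3 and 50.6, without overlap (-3.63 ± 1.38, adjusted p = 0.173), while Chrne, the adult subunit, overlapped. Chrnd, named after its value was seen, was at 947.0, 727.1 and 186.2 and then at 56.9, 82.4 and 66.2 (adjusted p = 0.0537, and 0.0163 without library 62).

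Matrix genes were high in library 51. Col1a1 was at 17865, 27268 and 13344 on day 2 and at 4607, 23893 and 3268 on day 30, and Col3a1 at 15118, 19162 and 7511 and then at 3725, 24079 and 4894. The other day 30 libraries lay below all day 2 libraries for both genes, and library 51 lay within or above them. Of 38 collagen genes tested, 0 were called and the median was 0.05. It was -0.09 with equal totals, and without library 51 it was -0.58. Fn1, fibronectin, was at 11728 in library 51 and at 1669 and 1424 in the others. Timp1, an inhibitor of matrix proteases, did not overlap, with 118.5, 129.2 and 68.1 on day 2 and 9.35, 41.8 and 3.37 on day 30 (-3.04 ± 0.90, adjusted p = 0.126). Genes of fibro-adipogenic cells, which support repair and make matrix, had a median of 0.97 over 17 tested, with 0 called by limma and 7 higher at an unadjusted p under 0.05. The median was 0.57 without library 51 and 0.36 without libraries 57, 51 and 62. Groups did not overlap with day 30 higher in 47.1% of them, against 14.5% of all genes. Smoc2 was at 442.9, 479.6 and 457.1 and then at 961.0, 2146 and 1211 (adjusted p = 0.073), and Pdgfra, the receptor that marks these cells, overlapped, with 1399 in library 51. Dcn, the matrix proteoglycan decorin, Dpt and Pi16, markers of these cells chosen after their values were seen, also did not overlap. Dcn was at 550.1, 465.3 and 374.6 on day 2 and at 2317, 7091 and 1413 on day 30, and library 51 was the highest day 30 library for all 3. The adjusted p was 0.0913, 0.0982 and 0.107, and without library 62 it was 0.0298, 0.0393 and 0.0404. Without libraries 57, 51 and 62 it was 0.0811, 0.136 and 0.126, so that none of the 3 was called. Rgs5, a marker of pericytes, was at 2805, 1806 and 2456 and then at 8671, 9641 and 4912 (1.68 ± 0.36, adjusted p = 0.0658, and 0.0164 without library 62). Pecam1, a marker of endothelium, overlapped. Of the tendon markers, Tnmd was at 53.6, 225.4 and 20.5 on day 30 and at 8.25, 11.3 and 21.9 on day 2, while Scx, a transcription factor of tendon cells, had the other order in most libraries, with 105.7, 146.6 and 503.7 on day 30 and 1219, 480.2 and 381.5 on day 2. Both overlapped.

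**Figure D5:**
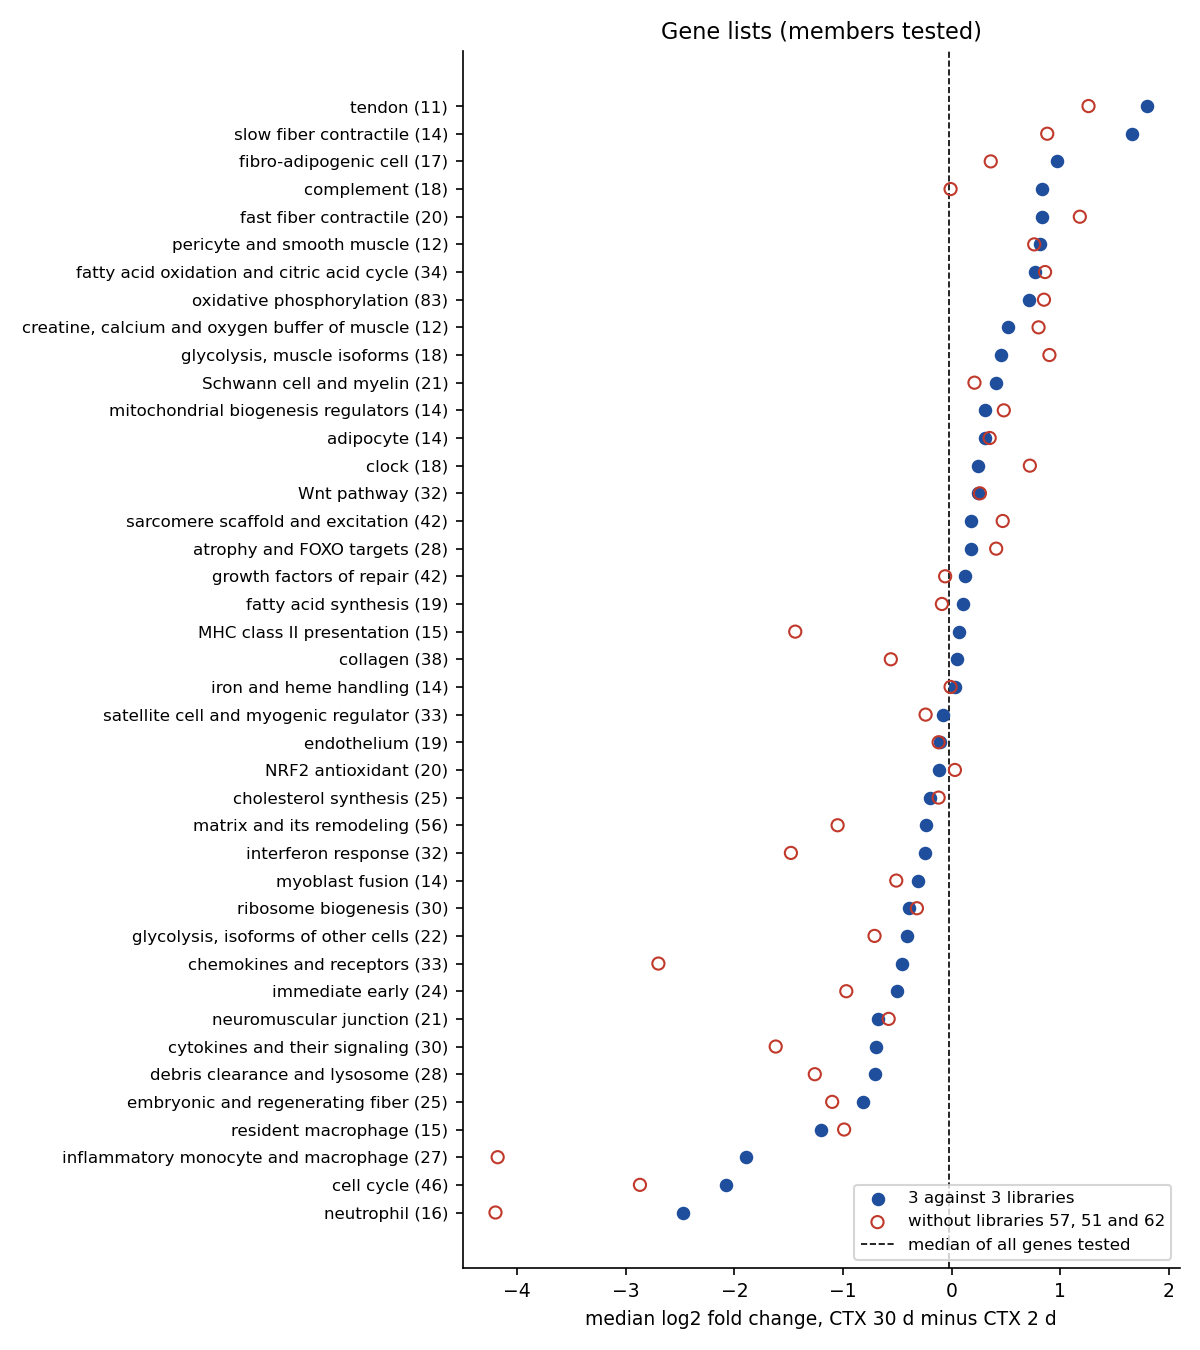
Median log2 fold change of CTX 30 d against CTX 2 d (horizontal axis) for each gene list with at least 10 members tested (rows, number tested in brackets), over all 6 libraries (filled) and without libraries 57, 51 and 62 (open), with the median of all genes as a dashed line. Neutrophil, monocyte and cell cycle lists lie lowest and move further down without these libraries; oxidative phosphorylation goes from 0.71 to 0.85.

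Mice given HC had the same injury and their own libraries at both times, so the change could be set beside that of untreated mice. There, 590 genes rose (4.2%) and 777 fell (5.54%) between day 2 and day 30, with library 62 included. Of the 36 genes called in untreated mice, 33 were called in HC mice with the same sign, and Amph, Myoc and Gprc5c were not. Both changes were tested with the same estimate of the spread of each gene. A gene picked for a small spread in 1 test is favored in the other, so this count is not an independent repeat. Mt1 fell by 3.73 in HC mice and fell by 4.11 in untreated mice. Card14 fell by 5.12 in HC mice and fell by 4.29 in untreated mice. The test of the difference between the changes called 0 genes in limma (0.0%), with 355 at an unadjusted p under 0.05. Gprc5c was at 2566, 2149 and 2028 on day 2 and at 2490, 2394 and 2114 on day 30 in HC mice, against 3634, 4503 and 3158 and then 2010, 1579 and 2151 in untreated mice, a difference between the changes of 1.03 that did not pass (adjusted p = 0.999). The log2 fold change of H19 was -0.73 in untreated mice, where it did not pass, and it rose by 1.5 in HC mice (adjusted p = 0.0119), and this difference did not pass either (adjusted p = 0.999). Acly, the enzyme that HC inhibits, was at 455.4, 483.1 and 266.7 on day 2 and at 372.3, 674.8 and 254.3 on day 30 in untreated mice, and overlapped.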

How the data were processed

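RNA of gastrocnemius was extracted by column and read as stranded mRNA libraries on an Illumina NovaSeq. Per the study methods the authors trimmed the reads, aligned them to mm10 with an Illumina application based on STAR and divided the counts of each library by its median-of-ratios size factor. The authors deposited these scaled counts per gene, used here as a signal with 24972 genes in 15 libraries, of which 6029 were at 0 in every library. Whole reads could not be recovered, so no count model was run; depth was estimated at 16.0 to 34.9 in units of 1e6 reads per library by taking the most frequent value under 2 as 1 read.

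The 14033 genes that reached 10 in 3 or more libraries were tested with limma 3.58.1 in R 4.3.3 on log2(value + 1), with 5 group means, a trended prior and 13.2 degrees of freedom. All 15 libraries shared the spread. A fold change on this scale understates that of low genes. On simulated data the script was checked before use. Named genes were the 10 largest rises and falls called without overlap, fixed markers of repair, and from each of 44 lists the extreme called members or, where none was called, the 2 of highest mean; others were chosen after their values were seen. The comparison, the members and the lists were chosen with earlier results of these data known. Other settings were another filter, pseudocount, scaling, weighting, covariate and set of libraries. The 3 other tables of the series were not used here. Coordinates are from GENCODE vM21 and sequences from RefSeq GRCm38.p6.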

Additional observations from a re-analysis of the deposited data

How the results depend on the processing

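The count of 36 genes was 31 without the filter, 39 and 34 with a pseudocount of 0.5 and 5, 45 after quantile normalization, 43 without libraries 57 and 51 (only 10 of the 36 among them), and 28 with a log2 limit of 1. It was 2 with only the 6 libraries fitted or rescaled, 8 with equal totals, 4 with the library number series as a covariate, 3435 with array weights, 1230 without library 62, 1570 without libraries 57, 51 and 62, 1246 by the rule of the study, and 0 to 330 with each library left out. The cause was not tested. Members of the lists called were 6, and 1 with only or rescaled the 6 libraries, 12 after quantile normalization, 369 with weights, 3 with the covariate, 145 without library 62, 19 without 57 and 51, 229 without 57, 51 and 62, and 0 to 38 with each library left out. Named genes called were 19, and 2 with the 6 libraries, 6 with equal totals, 63 with weights, 4 with the covariate, 34, 12 and 46 without the same libraries, and 0 to 25 with each left out. List shares that did not overlap were 13, and 14 without the 10 highest genes. The interaction count went from 0 to 1 with each library left out, and the 1 came without CTX 2 d library 55. Equal totals moved the median of all genes to -0.18 and the split of the study rule from 531 higher and 715 lower to 315 and 760. No sign of a called gene reversed in 646 refitted values over 18 settings, and 338 of these lost the call. The settings that leave out libraries 57, 51 and 62 were chosen after seeing the data. A DESeq2 or edgeR fit was not run, since the values are not counts. No paired analysis was possible because the day 2 and day 30 libraries came from different mice.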

Other observations

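Genes of muscle atrophy and FOXO targets had a median log2 fold change of 0.18 over 28, or 0.30 without library 51, with Mt1 and Mt2 called as falls and 0 rises called by limma, while 8 were higher at an unadjusted p under 0.05. Klf15, a factor induced by glucocorticoids and chosen after its value was seen, was at 463.6, 551.7 and 819.3 on day 2 and at 1755, 1138 and 1477 on day 30 (adjusted p = 0.0929, and 0.0256 without library 62), where the uninjured libraries were at 1023, 1104 and 1146. Gdf15, a stress-induced cytokine, was at 36.0, 118.9 and 23.5 and then at 1.96, 13.6 and 0.91 (adjusted p = 0.107, and 0.0278 without library 62), and Slc40a1, the iron exporter ferroportin, at 404.7, 196.0 and 411.7 and then at 850.9, 889.6 and 638.5 (adjusted p = 0.127, and 0.0185 without library 62). Both were chosen after their values were seen.

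Ribosome biogenesis genes, which make and process ribosomal RNA, had a median log2 fold change of -0.39 over 30 genes, with 28 negative, 0 called by limma and 15 at an unadjusted p under 0.05, and their share of the library was 0.117%, 0.101% and 0.0814% on day 2 and 0.0573%, 0.0642% and 0.0811% on day 30. Immediate early genes had a median of -0.50 over 24, or -0.89 without library 51, with Ier3 called. Fos, chosen after its value was seen, was at 310.1, 437.9 and 798.1 on day 2 and at 82.5, 183.0 and 116.2 on day 30, and the uninjured libraries held 273.1, 353.4 and 516.6, so that the day 30 values lay below both other groups. Clock genes had a median of 0.24 over 18, or 0.44 without library 51 and likewise without library 57, with 0 called by limma. At an unadjusted p under 0.05, 2 were higher and 1 was lower, against 1437 and 1520 of all 14033 genes tested. Nr1d2, a repressor of the clock chosen after its value was seen, was at 1911, 1632 and 2253 on day 2 and at 4899, 3775 and 3935 on day 30 (adjusted p = 0.084). Time of day of collection is not given in the labels.

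Clu, which encodes the secreted chaperone clusterin and was chosen after its value was seen, lay just outside the threshold (adjusted p = 0.0504), with 10252, 3057 and 11313 on day 2 and 678.1, 539.8 and 1316 on day 30. Library 57 was the highest of all 15 for it, although that library was low for monocyte and cell cycle genes. Genes of fatty acid and cholesterol synthesis had medians of 0.10 and -0.20 with 0 called by limma. The first was -0.03 without library 51 and 0.22 without library 57, and the second -0.07 without library 57. Growth factors of repair had a median of 0.12 over 42 genes, which was -0.06 without library 51, and Igf1 overlapped, with 1152, 239.4 and 438.0 on day 2 and 523.1, 1397 and 429.2 on day 30. Endothelial genes had a median of -0.11, which was -0.26 without library 51 and 0.06 without library 57. The median of Schwann cell genes was 0.41, which was 0.0 without library 51 and 0.21 without libraries 57, 51 and 62. Ccl21a, a chemokine of lymphatic vessels chosen after its value was seen, was at 0, 3.35 and 13.3 on day 2 and at 35.2, 292.0 and 77.9 on day 30.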
